A study of Mus musculus with 8 samples.

Results

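The MYC, MAX and MXD network is a group of transcription factors that share the partner MAX. The 10 genes Myc, Mycn, Mycl1, Max, Mxd1, Mxd3, Mxd4, Mxi1, Mnt and Mga were taken by symbol, and all 10 were found on 1 row each among 17922 rows of gene expression. MYC proteins pair with MAX, bind the E-box sequence and raise transcription of genes for growth and division. The MXD proteins, MXI1 and MNT pair with the same MAX, bind the same sequence and recruit the SIN3 corepressor with its histone deacetylases. MGA carries a T-box beside its MAX-binding domain and works with MAX in a variant Polycomb complex named PRC1.6. Mouse pluripotent cells are known to use Mycn and Mycl beside Myc, and Myc was a component of the original reprogramming mixture.

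Gene expression was measured by sequencing of ribosome-depleted total RNA in 4 libraries, 1 for each stage of the reprogramming of C57BL/6 mouse fibroblasts. Embryonic fibroblasts (MEFs) came from fetuses at 13.5 days and carried tetO-OSKM, that is copies of Pou5f1, Sox2, Klf4 and Myc that doxycycline switches on, and the MEF library is day 0. Induced cells were sampled at day 3 and day 6 in medium that held serum replacement, LIF and CHIR99021, an inhibitor of the kinase GSK3, and the last library was from fully reprogrammed iPSCs derived from such MEFs. The sources used here give neither the number of embryos or iPSC clones behind a library nor the medium of the MEFs and iPSCs, so an effect of medium and an effect of stage cannot be told apart. The 4 matching small RNA samples were not used here.

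The cells carried the genes of their labels. A fibroblast list of 6 genes summed to 6589, 6377, 6737 and 195 FPKM across the MEF, day 3, day 6 and iPSC libraries, where FPKM is scaled to gene length and library size and can be set side by side between genes. A pluripotency list of 6 genes, with Nanog and Esrrb, summed to 0.666, 0.603, 0.469 and 1066 FPKM. A macrophage and leukocyte list of 6 genes summed to 67.8, 49.1, 54.2 and 13.0 FPKM. Lyz2 held most of it in the first 3 libraries, and Cd68, at 11.9 FPKM, in iPSCs. Ptprc, which marks all leukocytes, was at 0.703, 0.387, 0.466 and 0 FPKM. The part of such cells in the values below was not tested. In bulk RNA fewer cells of a type and less RNA per cell cannot be told apart. With 1 library a stage there is no replicate error and no test. A gene is called higher or lower when log2(FPKM + 1) differs by at least 1 and the higher value is at least 1 FPKM, and that scale understates differences of low genes.

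The stretch of DNA before the start of 9 of the 10 genes was in the RefSeq promoter table on build GRCm38.p6, and the gene without one was Myc. Mycn and Mxd4 had the largest positive and negative difference of the 10 between iPSCs and MEFs. Their windows are shown whole, as only these lay wholly outside the annotated span of their own gene. Each is the 250 bases before the annotated start, 5′ to 3′ on the strand of the gene, which is the minus strand for both. The window of Mycn is chr12:12941837-12942086 and that of Mxd4 is chr5:34187711-34187960. Capitals mark matches to an E2F motif (TTTCCCGC, TTTCGCGC, TTTGCCGC or TTTGGCGC) or to the E-box CACGTG, searched on both strands.
Mycn: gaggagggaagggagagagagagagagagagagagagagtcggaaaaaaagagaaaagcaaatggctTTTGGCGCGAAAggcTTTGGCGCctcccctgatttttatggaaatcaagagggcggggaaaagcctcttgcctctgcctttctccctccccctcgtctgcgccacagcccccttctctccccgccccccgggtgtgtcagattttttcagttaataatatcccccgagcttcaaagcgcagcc
Mxd4: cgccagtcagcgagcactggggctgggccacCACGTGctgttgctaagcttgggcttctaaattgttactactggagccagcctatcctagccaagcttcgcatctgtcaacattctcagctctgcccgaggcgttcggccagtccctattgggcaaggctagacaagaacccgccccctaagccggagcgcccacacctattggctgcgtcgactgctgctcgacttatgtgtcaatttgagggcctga
The Mycn window held 3 matches to the E2F motif, of which the first 2 overlap, beginning 183, 179 and 168 bases before the start. Of all 32851 promoter windows of that length 1.86% held at least 1. The Mxd4 window held the E-box at 219 bases before the start. The Mnt window held it at 123 bases, and 30 bases around it are shown beside the Mxd4 match, at chr11:74830789-74830818 on the plus strand.
Mnt: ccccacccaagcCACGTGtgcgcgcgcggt
The E-box stood in 6.02% of all windows. A TATA motif (TATAAA, both strands) stood in 12.4% of them. Among the 9 genes with a window it stood in that of Mycl1 alone, 8 bases before the start. The windows of Mycl1, Max, Mxd1, Mxd3, Mxi1 and Mga held neither the E2F motif nor the E-box, which says only that these letters were not there.

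The MYC family switched paralog between day 6 and iPSCs, with Myc low and Mycn and Mycl1 high in iPSCs. Across the MEF, day 3, day 6 and iPSC libraries Myc (ENSMUSG00000022346) was at 16.8, 21.2, 22.8 and 1.83 FPKM. Mycn (ENSMUSG00000037169), the paralog known from neural and embryonic progenitors, was listed at 0, 0.0106, 0 and 22.1 FPKM. Mycl1 (ENSMUSG00000028654, now named Mycl), the least transforming of the family, was at 0.160, 0.140, 0.0554 and 4.87 FPKM. The first 3 libraries thus held nearly only Myc, and the iPSC library was the low one for Myc and the high one for the other two. On the log2(FPKM + 1) scale iPSCs differed from MEFs by -2.65 for Myc, 4.53 for Mycn and 2.34 for Mycl1, and from day 6 by -3.07, 4.53 and 2.47. Within the iPSC library the level of Mycn was 4.53 times that of Mycl1 and 12.1 times that of Myc.

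Summed over the paralogs, the family came to 16.9, 21.3, 22.9 and 28.7 FPKM in stage order from MEFs to iPSCs. Myc made up 99.1%, 99.3%, 99.8% and 6.36% of that sum. In iPSCs Mycn made up 76.7% and Mycl1 16.9%. The iPSC sum was 1.70 times that of MEFs as deposited, 1.93 times with libraries set to equal upper quartiles and 1.81 times by the median of ratios. The identity of the paralog therefore differed more between the libraries than the summed level did. Such shares do not depend on how a library is scaled.

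**Figure D1:**
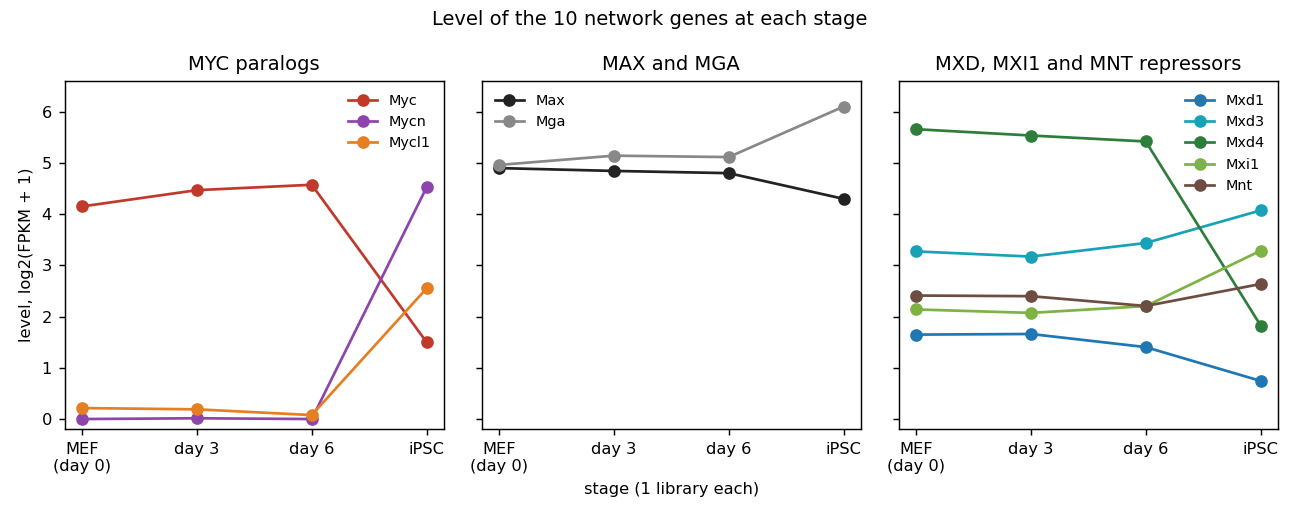
Level of each gene on the log2(FPKM + 1) scale (y axis) in the MEF, day 3, day 6 and iPSC libraries (x axis), with MYC paralogs, MAX and MGA, and the repressors in separate panels and 1 point per library. The Myc line ends at 1.83 FPKM in iPSCs and the Mycn line at 22.1 FPKM, and among the repressors Mxd4 leads in the first 3 libraries at 41.8 FPKM or more and ends at 2.55.

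Myc was also an induced transgene, and the deposited row does not tell reads of the introduced copy from those of the resident gene. Its row was at 1.26 times its MEF value at day 3 and 1.36 times at day 6, on the log2 scale 0.32 and 0.42, both within the rule. Of all genes compared, 94.6% had a smaller difference at day 3 and 95.1% at day 6. Pou5f1, another factor of tetO-OSKM, was at 37.9 times its MEF value at day 6, Sox2 at 4.93 times and Klf4 at 1.14 times. Pou5f1 and Sox2 began from 0.226 and 0.411 FPKM in MEFs, whereas Myc began from 16.8 and Klf4 from 10.6. As a difference in FPKM between day 6 and MEFs, Myc was 6.06 and Pou5f1 8.33. How much of the Myc row came from the introduced copy was not tested.

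MAX, the obligate partner, was among the steadier members. Max (ENSMUSG00000059436) was at 28.9, 27.7, 26.9 and 18.7 FPKM from MEFs to iPSCs. Its iPSC value was the lowest, -0.60 from MEFs on the log2 scale and within the rule. Relative to the MYC family sum, Max stood at 1.70, 1.30, 1.17 and 0.650 in the same order, so Max exceeded the summed paralogs in the first 3 libraries and not in iPSCs. Relative to the sum of paralogs, MXD genes, Mxi1 and Mnt together, Max was between 0.302 and 0.339 in all 4 libraries. That sum leaves out Mga, whose protein also binds MAX, so this narrow range does not cover all partners. Of all 10 genes summed, Mga among them, Max held 18.9% at day 3, 18.7% at day 6 and 12.6% in iPSCs. Its share was highest in MEFs.

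MGA was the member with the highest level in iPSCs. Mga (ENSMUSG00000033943) was at 30.2, 34.3, 33.7 and 67.7 FPKM by stage (MEFs, day 3, day 6 and iPSCs), and in iPSCs it exceeded 92.1% of genes with at least 1 FPKM in any library. It was higher in iPSCs than in MEFs, by 1.14 on the log2 scale, and 0.99 above day 6, just under the rule as deposited and 1.11 with equal upper quartiles. By stage the ratio of Mga to Max was 1.05, 1.24, 1.25 and 3.62. A pseudogene overlaps the Mga gene in the RefSeq annotation, and how reads were divided between them is not stated.

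Among the MAX-binding repressors, Mxd4 was low in iPSCs while the proliferation-linked Mxd3 and also Mxi1 stood above their MEF values. Mxd4 (ENSMUSG00000037235), linked in other work to cells that leave the cycle, was at 49.6, 45.4, 41.8 and 2.55 FPKM by stage. Its iPSC value was -3.83 from MEFs on the log2 scale, and 97.6% of genes compared had a larger value of the difference. Mxd4 was the most abundant of the 10 genes in the first 3 libraries, and in iPSCs all but Myc and Mxd1 stood above it.

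Mxi1 (ENSMUSG00000025025), also known as MAD2 among the MXD proteins, was at 3.41, 3.21, 3.61 and 8.76 FPKM by stage, higher in iPSCs than in MEFs by 1.15. In RefSeq a long noncoding RNA gene overlaps Mxi1 and another overlaps Mxd1, and how their reads were divided is not stated. Mxd3 (ENSMUSG00000021485), known for expression in dividing cells in S phase, was at 8.67, 8.02, 9.83 and 15.8 FPKM, a difference of 0.80 between iPSCs and MEFs that lay within the rule. In RefSeq Mxd3 overlaps Prelid1, which was at 144, 129, 125 and 146 FPKM, and without a stated strand setting reads of the shared bases cannot be assigned. Both Mxi1 and Mxd3 had their highest value in iPSCs.

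Mxd1 (ENSMUSG00000001156), a repressor induced in differentiating cells, was at 2.14, 2.16, 1.65 and 0.675 FPKM by stage. Its difference between iPSCs and MEFs was -0.90, just short of the rule, and -1.53 with a pseudocount of 0.1. Mnt (ENSMUSG00000000282), the broadly expressed antagonist of MYC, was at 4.32, 4.28, 3.62 and 5.22 FPKM and within 0.43 on the log2 scale in every comparison. Of the 10 genes Mnt had the smallest difference between iPSCs and MEFs, 0.23 as deposited and 0.38 with equal upper quartiles, followed by Max.

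Summed, the 5 repressor genes Mxd1, Mxd3, Mxd4, Mxi1 and Mnt came to 68.1, 63.1, 60.5 and 33.0 FPKM by stage. Mxd4 held 72.8%, 72.0%, 69.1% and 7.71% of that sum. In iPSCs Mxd3 held 47.9%, Mxi1 26.5% and Mnt 15.8%. The repressor sum was 4.02 times the MYC family sum in MEFs, 2.96 times at day 3, 2.65 times at day 6 and 1.15 times in iPSCs. This series of ratios rests on Mxd4, and without it the ratios were 1.10, 0.829, 0.818 and 1.06, with no order from MEFs to iPSCs. The sum of the other 4 repressors was 30.5 FPKM in iPSCs and 18.5 in MEFs, the opposite direction from the sum with Mxd4.

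**Figure D2:**
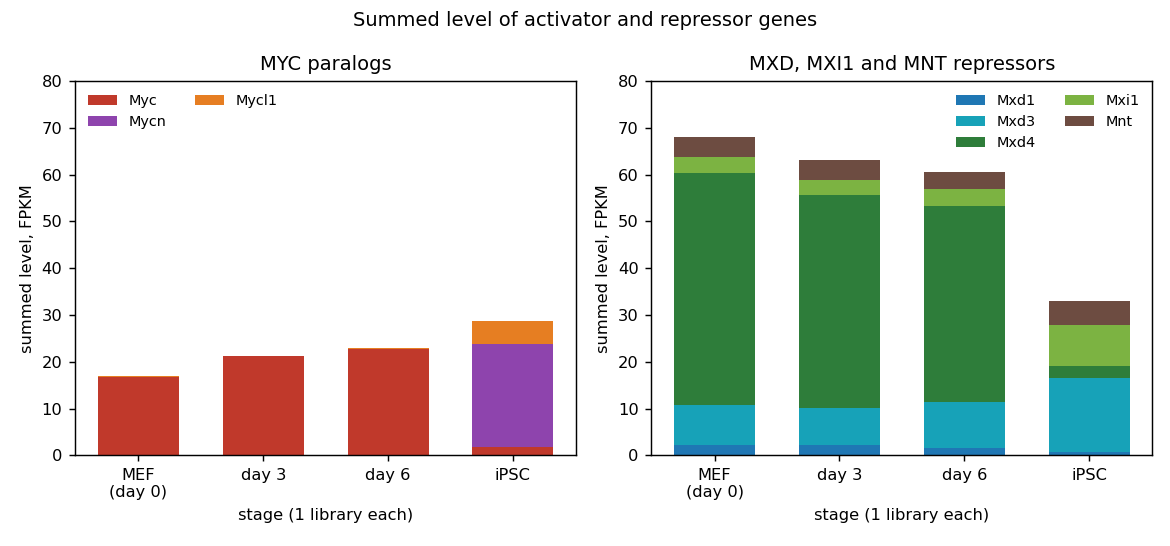
Stacked bars from 0 of the summed level in FPKM (y axis) of the MYC paralogs (left) and of the MXD, MXI1 and MNT repressors (right) in the MEF, day 3, day 6 and iPSC libraries (x axis), 1 library each. The paralog bars reach 16.9, 21.3, 22.9 and 28.7 FPKM with Mycn filling most of the last, and the repressor bars reach 68.1, 63.1, 60.5 and 33.0 FPKM with Mxd4 filling most of the first 3.

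The order of levels differed between the ends of the series. In iPSCs the order was Mga, Mycn, Max, Mxd3, Mxi1, Mnt, Mycl1, Mxd4, Myc and Mxd1. In MEFs it was Mxd4, Mga, Max, Myc, Mxd3, Mnt, Mxi1, Mxd1, Mycl1 and Mycn. No spread over samples is available, so neighbours in either order cannot be called different. The sum of all 10 was 148 FPKM in iPSCs and 144 in MEFs.

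By the rule, 4 of the 10 genes (Mycn, Mycl1, Mxi1 and Mga) were higher in iPSCs than in MEFs and 2 (Mxd4 and Myc) were lower. Over all 12937 genes compared, 21.1% were higher and 25.0% lower, 46.0% in either direction, so 6 of 10 is not far from the background and the count is no result about the network. Against day 6, 3 were higher (Mycn, Mycl1 and Mxi1) and 2 lower (Mxd4 and Myc), beside 20.4% and 23.4% of all genes. The sizes of Mycn and Mxd4 lay outside the central 90% of genes between iPSCs and MEFs, which ran from -2.86 to 2.35. With a pseudocount of 5, Mycn and Mga (2 genes) stayed higher against MEFs and Mycn (1 gene) against day 6, and a difference of at least 2 left Mycn and Mycl1 (2 genes) against MEFs.

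During induction no member passed the rule. For day 3 against MEFs 0 of 10 were higher or lower, beside 0.170% and 0.0511% of 11740 genes. For day 6 against day 3 the count was again 0 of 10, beside 0.457% and 0.398% of all genes, and for day 6 against MEFs 0 of 10, beside 0.770% and 0.584%. With such a background 10 genes would hold few or no calls, so these counts do not set the network apart. Myc was the member with the largest positive difference at day 3 and at day 6 against MEFs, followed by Mga at day 3 (0.18) and Mxd3 at day 6 (0.16). Below MEFs at day 6 were 5 members, Mxd1 at -0.24, Mxd4 at -0.24, Mnt at -0.20, Mycl1 at -0.14 and Max at -0.10. Mycl1 and Mycn were under 1 FPKM in the first 3 libraries and could not have been called there.

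**Figure D3:**
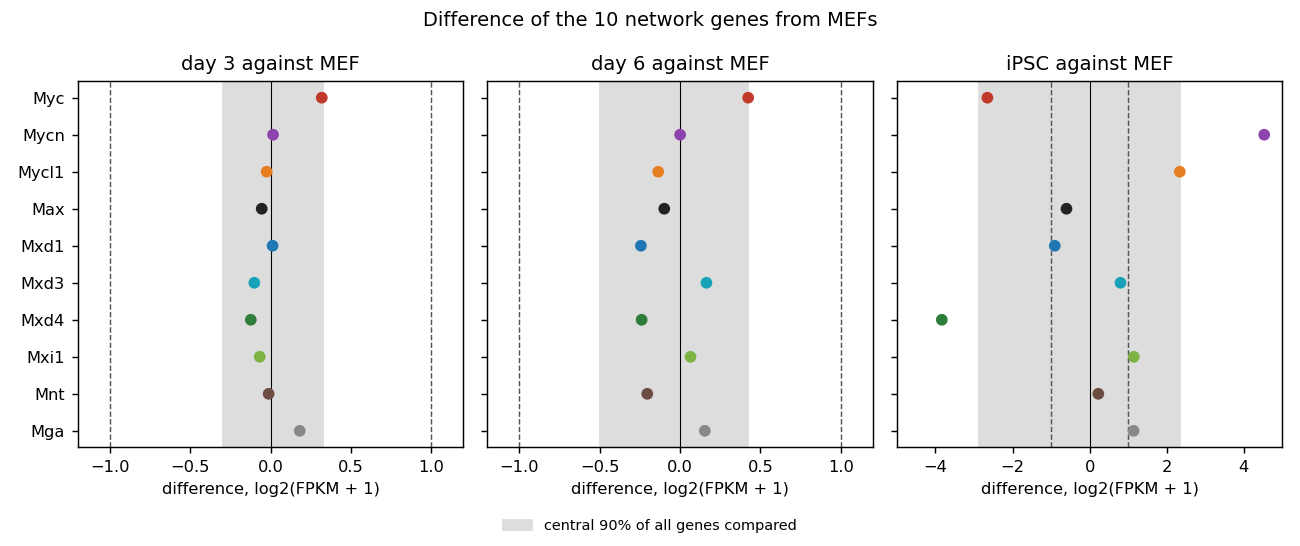
Difference in log2(FPKM + 1) (x axis, with a wider scale in the last panel) of each gene (y axis) for day 3, day 6 and iPSCs against MEFs, with the central 90% of all genes compared in grey and the rule of 1 as dashed lines. All points lie inside the dashed lines at day 3 and day 6, and in iPSCs Mycn lies at 4.53 and Mxd4 at -3.83, both outside the grey band.

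Genes known to be activated by MYC in growth stood mostly above their MEF level in iPSCs, the library with Mycn in place of Myc. Set against MEFs, 25 of 39 such genes were higher in iPSCs and 1 was lower, where 21.1% of all genes were higher and 25.0% lower. The median difference was 1.27, beside a median over all genes of -0.05, or 0.13 with equal upper quartiles. Shmt1, an enzyme of folate metabolism, was at 34.8 FPKM in iPSCs and 4.23 in MEFs. Cad, which starts pyrimidine synthesis, was at 56.7 and 9.72, Ppat, which starts purine synthesis, at 33.0 and 5.97, and Dkc1, of the telomerase and small nucleolar RNA particles, at 82.8 and 16.6. The lower gene was Ccnd2, a D-type cyclin, at 3.17 FPKM in iPSCs and 100.3 in MEFs. At day 3 and day 6 Ccnd2 had 130 and 134 FPKM and, like Myc, stood highest at day 6. The list was chosen with earlier results of these data known, and its count is no support for a role of any paralog.

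Between MEFs and day 6 the same genes were within the rule. At day 6, 33 of 39 were above their MEF value, with a median of 0.19, where 46.6% of all genes were above and the median was -0.02. The largest differences were those of Ncl, the nucleolar protein nucleolin, at 14.5 FPKM at day 6 and 7.68 in MEFs, and of Cad, at 15.9 and 9.72. Both were already near that level at day 3, with 14.5 FPKM for Ncl and 17.4 for Cad. Odc1, the polyamine enzyme often used as a MYC target, was at 62.5, 62.0, 70.0 and 119 FPKM across the 4 stages.

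Of the 10 genes listed as known to be repressed by MYC, 9 were found, with 3 higher in iPSCs than in MEFs and 4 lower (median -0.03), beside 21.1% and 25.0% of all genes. The growth arrest gene Gadd45g was at 14.0 FPKM in iPSCs and 112 in MEFs, and the CDK inhibitor genes Cdkn2b at 8.39 and 41.3 and Cdkn1a at 22.5 and 66.1. The survival gene Bcl2 was at 0.0714 FPKM in iPSCs and 1.38 in MEFs. The imprinted CDK inhibitor gene Cdkn1c was at 19.5 in iPSCs and 3.20 in MEFs, Ndrg1 at 46.0 and 9.29 and Ndrg2 at 10.7 and 4.24. At day 6, 2 of the 9 were lower than in MEFs, which were Cdkn1c at 0.982 FPKM and Ndrg2 at 1.54, beside 0.584% of all genes. The count was 1 with equal upper quartiles and 0 with a pseudocount of 5, a minimum of 5 FPKM or a difference of at least 2. As deposited, those 2 genes were below MEFs at day 6 and above them in iPSCs.

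**Figure D4:**
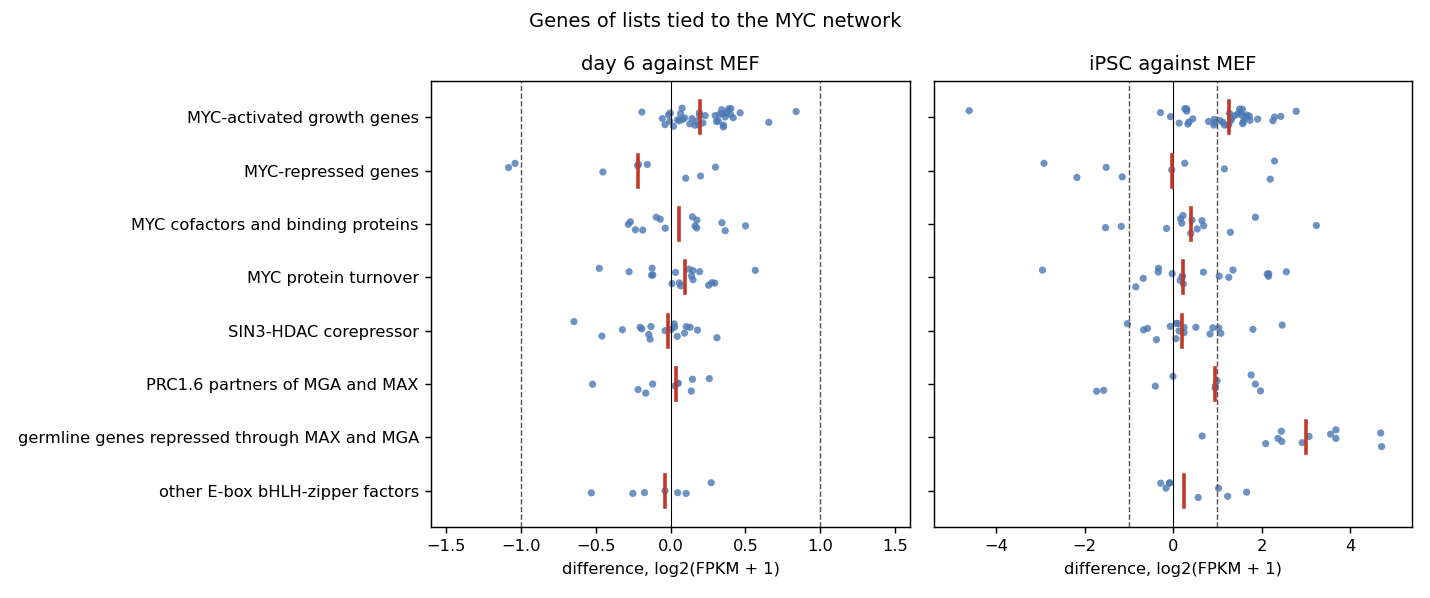
Difference in log2(FPKM + 1) (x axis, with a wider scale on the right) of single genes (blue points) in 8 lists (y axis) for day 6 against MEFs and iPSCs against MEFs, with the list median as a red bar and the rule of 1 as dashed lines. The growth genes have a median of 0.19 at day 6 and 1.27 in iPSCs, and no gene of the germline list reached 1 FPKM before iPSCs.

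Genes of the corepressor that MXD proteins recruit were expressed at every stage, with a sum of 628, 608, 559 and 833 FPKM by stage. Between iPSCs and MEFs, 4 of 18 genes of the SIN3-HDAC complex were higher and 1 was lower (median 0.19). With 21.1% of all genes higher and 25.0% lower, the higher count is near the background and is no result about the complex. Sin3a, a scaffold of the complex, was at 61.0 FPKM in iPSCs and 16.8 in MEFs, and the subunit gene Sap30 at 32.0 and 5.00. The histone-binding subunit gene Rbbp4 was at 142 and 68.9, Ing2 at 15.9 and 7.01, and the lower gene Brms1l at 6.94 and 15.2. The other scaffold gene, Sin3b, was at 75.5 FPKM in iPSCs and 63.6 in MEFs. No member was called in the comparisons among MEFs, day 3 and day 6.

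Among partners of MGA and MAX in PRC1.6, 3 of the 10 stood higher in iPSCs than in MEFs and 2 lower (median 0.95), beside 21.1% and 25.0% of all genes, so the counts are no result about the complex. The defining subunits Pcgf6 and L3mbtl2 were at 25.8 and 22.4 FPKM in iPSCs and at 5.83 and 5.90 in MEFs, and Wdr5 at 53.4 and 14.0. E2f6, which also binds DNA for the complex, was at 11.6 FPKM in iPSCs and 40.7 in MEFs, and Yaf2 at 8.21 and 26.3. Mga, Pcgf6 and L3mbtl2 were therefore higher in iPSCs and E2f6 lower, while Max was within the rule.

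Germline genes that other work places under repression through MAX and MGA in mouse embryonic stem cells were detected in iPSCs. Of 12 found of 13, 11 were higher in iPSCs than in MEFs (median 2.99), beside 21.1% of all genes. All 12 were under 1 FPKM in MEFs and entered the comparison only through their iPSC value. No gene of the list could therefore have been called lower, and the count and median are no result about these genes. The piRNA gene Mael was at 27.7 FPKM in iPSCs and 0.1001 in MEFs, Dazl, an RNA-binding protein of germ cells, at 26.3 and 0.0621, Sycp3, of meiotic chromosomes, at 20.3 and 0.669, and Taf7l at 12.5 and 0.0615. Tdrkh, at 1.01 FPKM in iPSCs and 0.280 in MEFs, was within the rule. None reached 1 FPKM in MEFs, at day 3 or at day 6, so the comparisons among those stages hold none of them. High Mga and Pcgf6 and these transcripts were found in the same iPSC library, and repression through MAX or MGA was not tested here. An iPSC value above that of MEFs does not decide it.

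Cofactors of MYC and regulators of MYC stability had most members within the rule between iPSCs and MEFs. So did all genes, of which 46.0% were called in either direction. Among 14 cofactors and binding proteins, iPSCs had 3 higher and 2 lower than MEFs (median 0.41), beside 21.1% and 25.0% of all genes. These counts are no result about the cofactors. The ATPase gene Ruvbl2 was at 165 FPKM in iPSCs and 16.6 in MEFs and its partner Ruvbl1 at 34.1 and 13.3, with Wdr5 as above. Lower were Mycbp2, a ubiquitin ligase, at 8.92 and 27.5, and Bin1, which binds MYC, at 8.55 and 20.5. Zbtb17, which encodes MIZ1 and through which MYC represses genes, was at 10.5 and 9.25 FPKM, and the acetyltransferase scaffold Trrap at 23.0 and 19.5.

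Among 18 genes acting on MYC protein turnover, iPSCs had 7 higher and 1 lower than MEFs (median 0.22), where 21.1% of all genes were higher and 25.0% lower. The list mixes genes that stabilise MYC proteins with genes that act in their loss, so the count has no single meaning for turnover. The deubiquitinase gene Usp28 was at 25.1 FPKM in iPSCs and 3.44 in MEFs, the kinase genes Aurka, which stabilises MYCN protein, at 72.9 and 15.6 and Plk1 at 41.2 and 8.50, and Set at 426 and 97.0. Also higher were Skp2 at 14.9 and 5.67, Ppp2r5a at 27.2 and 12.7, and Cip2a (listed as C330027C09Rik) at 38.0 and 14.3. The ligase gene Fbxo32 was lower, at 0.906 and 13.7. Fbxw7, the ligase that reads phosphorylated MYC and MYCN, was within the rule at 9.98 FPKM in iPSCs and 5.84 in MEFs. Gsk3b, whose kinase is the target of CHIR99021 and marks MYC for FBXW7, was at 19.3, 23.6, 22.2 and 15.1 FPKM by stage. These are RNA levels, and no protein was measured.

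Genes with a profile most like that of a paralog were sought among 12932 rows with a unique symbol and at least 1 FPKM in any library, by the root mean square difference of log2(FPKM + 1) after centring each profile on its mean over the 4 libraries. For Myc these were Igfbp5 (0.05), Pcdh19 (0.05), Farp2 (0.06), Hhat (0.08) and Col14a1 (0.09). Col14a1, a fibroblast collagen gene, was at 6.55, 8.35, 9.58 and 0.0649 FPKM, and Igfbp5 at 9.18, 11.7, 12.4 and 0.740. For Mycn they were Cnpy1 (0.02), 2410141K09Rik (0.03), Dppa2 (0.03), Fam169a (0.03) and Fmr1nb (0.03). Dppa2, a pluripotency-associated gene, was at 0.0109, 0, 0.0447 and 22.7 FPKM. For Mycl1 they were Kazn (0.02), Snhg11 (0.02), Derl3 (0.02), Rab15 (0.03) and 9030624G23Rik (0.03), of which Kazn was at 5.02, 4.68, 4.39 and 29.2 FPKM. With 4 points a profile is matched by many genes, since 234 rows lay within 0.25 of Myc, 81 of Mycn and 574 of Mycl1.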

How the data were processed

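The authors deposited 1 table of FPKM values per gene, with 1 column for each of 4 libraries, per the file headers. The submitters' processing notes name HISAT2, Cufflinks and mm9 as genome build, and versions, gene models, filters and strand setting are not given here. Depth is not stated. It was estimated from the most frequent ratio of values among rows under 0.06 FPKM in a library and in MEFs. The estimate assumes that such rows mostly hold the same few fragments in both libraries. By it the day 3 library held about 0.646 of the fragments of the MEF library, and day 6 and iPSCs 1.04 and 1.02. Low values would then be least precise at day 3. FPKM columns summed to between 438130 and 486609.

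Python 3.11.15 with pandas 2.3.3 was used. Differences are of log2(FPKM + 1), first stage minus second. The code for the rule of 1 was checked on simulated data, which gives no error rate for 1 library a stage. The members and the 11 gene lists and 5 marker lists were chosen with earlier results of these data known. All members were named, with up to 4 called genes per direction of each gene list in iPSCs against MEFs, and those called earlier. Also named were all genes found of gene lists of up to 4, and the 5 nearest profiles of each MYC paralog. Marker lists are given as sums, from which only Nanog, Esrrb, Lyz2, Cd68, Ptprc and Gata4 are named. A few others (Odc1, Sin3b, Zbtb17, Trrap, Fbxw7, Gsk3b, Skp2, Ppp2r5a, Cip2a, Ncl, Tdrkh, Ptprc, Cd68, the factors Pou5f1, Sox2 and Klf4, and the overlapping Prelid1) were chosen after their values were seen. A symbol on several rows was represented by its highest row. Promoter sequences are from RefSeq (GRCm38.p6). A motif search covered the 250 bases before each start. Alternatives were other pseudocounts, scalings, thresholds and minimum values.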

Additional observations from a re-analysis of the deposited data

How the results depend on the processing

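No paired analysis was possible because there was 1 library a stage, which also left no replicate to leave out. Of 70 counts of members under alternatives 67 stayed within 1.5 times, among them all under both scalings. No member was called among MEFs, day 3 and day 6 under any setting, so all counts that moved were those of iPSCs. Calls were also gained within that limit. Mga passed the rule against day 6 by the median of ratios (1.06) and with equal upper quartiles (1.11). Mxd1 passed it as lower in iPSCs than in MEFs with a pseudocount of 0.1. With a pseudocount of 5 the members higher were 2 for iPSCs against MEFs and 1 against day 6, and a log2 difference of 2 gave 2 for iPSCs against MEFs, since Mxi1 and Mycl1 lose the call under the first and Mxi1 and Mga under the second. Of 200 member differences 175 moved by less than 1.5-fold or 0.1, and no called one changed sign. Of 364 list medians 346 did so. As a share of all 10 members, across the MEF, day 3, day 6 and iPSC libraries Myc held 11.6%, 14.4%, 15.9% and 1.23%, Mycl1 0.111%, 0.0959%, 0.0385% and 3.28%, and Mycn 14.9% in iPSCs, since the sum is then larger. Without Mxd4, an alternative chosen after seeing the data, the ratio of repressors to MYC family was 1.10 in MEFs, 0.829 at day 3 and 0.818 at day 6. Without Mnt the 4 ratios stayed within 1.5 times. Equal upper quartiles moved the median of all genes from -0.05 to 0.13 for iPSCs against MEFs, with 2724 and 3226 genes higher.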

Other observations

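The MLX branch, in which MLX takes the place of MAX and pairs with MondoA (Mlxip) or ChREBP (Mlxipl) to sense glucose, was flat except for Mlxipl. Across the MEF, day 3, day 6 and iPSC libraries Mlx was at 20.8, 19.0, 14.7 and 17.9 FPKM, and Mlxip at 4.75, 6.73, 5.07 and 4.09. Mlxipl, at 1.67 FPKM in iPSCs and 0.0294 in MEFs, was called higher. That call was lost with a pseudocount of 5, a minimum of 5 FPKM or a log2 difference of at least 2. Of 2 MondoA targets both were higher in iPSCs than in MEFs, Txnip, an inhibitor of glucose uptake, with 249.8 and 94.0 FPKM and Arrdc4 with 46.7 and 11.2. Of 3 genes in the branch 1 was higher, and Mlxip, which encodes MondoA, was within the rule. Of all genes compared 21.1% were higher, and counts over 2 or 3 genes are no result about the branch or its targets.

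Other E-box factors with a zipper were 3 higher and 0 lower of 8 compared between iPSCs and MEFs, beside 21.1% and 25.0% of all genes, with Tfap4, an activated target of MYC in other work, at 3.62 and 0.463 FPKM, Srebf2, the regulator of cholesterol synthesis, at 40.6 and 16.7, and Usf1 at 24.8 and 11.7. The MYC-like gene Bmyc was at 5.91, 4.92, 5.04 and 7.61 FPKM by stage, within the rule. Among markers of other cell types, a keratinocyte list was at 2.85, 3.89, 18.4 and 1.53 FPKM in sum over 4 genes found of 5, and an extra-embryonic and endoderm list at 3.41, 3.06, 3.33 and 16.5 over 3 found of 5, with Gata4 at 8.74 FPKM in iPSCs.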
